A study of Mus musculus with 18 samples.

Results

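The 4 genes described here encode the intermediate filament proteins that make up the neurofilaments of cortical neurons: Nefl (the light subunit), Nefm (the medium subunit), Nefh (the heavy subunit) and Ina (α-internexin). They are 4 of the 54446 genes of a table of read counts, taken by gene symbol. They were chosen on their measured levels across layers and constructs. These levels and their differences are thus a description, and nothing is read from their test calls. RNA was sequenced from the neocortex of 6 CD-1 mice at postnatal day 7, in 18 libraries. Plasmids had been electroporated into the ventricular wall in utero at E14.5 (days of embryonic development). Sagittal sections of 300 µm were dissected into layers 2-3 (L2-3), layer 4 (L4) and layers 5-6 (L5-6), and each layer was pooled per mouse. The protocol in the labels gives both L2-3 and L5-6 as infragranular (below layer 4), so the layer of a library was taken from its title.

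The GFP group held 3 mice that had received empty plasmid with Gfp cDNA. In the huFOXP2 group, 2 mice had received human FOXP2 cDNA with Gfp cDNA, and in the moFoxp2 group 1 mouse had received mouse Foxp2 cDNA with Gfp cDNA. These 3 mice together are called FOXP2 mice below. Every mouse, controls included, thus carried Gfp cDNA on a CD-1 background. Electroporation reaches part of the cells of a region, and the labels describe only the cells of L4 as GFP-positive and those of L2-3 and L5-6 as GFP-negative. The promoter of the plasmids is not given in the sources used here. Libraries are bulk tissue, so fewer cells of a type and less RNA per cell cannot be told apart. CPM is the count relative to the library total, scaled to counts per 1000000 after TMM, a correction for differences in library composition.

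Neurofilaments are built from the light subunit or α-internexin together with the longer medium and heavy subunits. All 4 proteins share a coiled-coil rod, while the medium and heavy subunits carry long tails that project from the filament and are phosphorylated at Lys-Ser-Pro repeats. α-Internexin appears early in developing neurons, the light and medium subunits follow, and the heavy subunit rises late as axons thicken. In the mature neocortex, neurofilament protein is abundant in large projection neurons with thick, long axons, among them those of layer 5.

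Over whole aligned coding sequences the members were 56.8% (Nefl and Nefh) to 62.6% (Nefm and Ina) identical. The transcript of longest coding sequence of each gene was also compared in the sense direction. There the longest stretch that any pair shared without a mismatch was 23 bases, in Nefm and Nefh. Near-identical copies that would mix their reads in that direction are thus not found among the 4 members. Nefl and Nefm do overlap in exons on opposite strands, as described below.

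The tails of the proteins differ in their repeats. In-frame codons for Lys-Ser-Pro occurred 51 times in the 3270 coding bases of Nefh, 4 times in the 2544 of Nefm, and 0 times in Nefl (1629 coding bases) and Ina (1503). The densest 150 bases of Nefh, at chr11:4940920-4941069 on the minus strand (mm10, sequence from the GENCODE M21 transcript, written 5′ to 3′), are shown because their 8 repeats, in capitals, are what sets the heavy subunit apart.
Nefh tail: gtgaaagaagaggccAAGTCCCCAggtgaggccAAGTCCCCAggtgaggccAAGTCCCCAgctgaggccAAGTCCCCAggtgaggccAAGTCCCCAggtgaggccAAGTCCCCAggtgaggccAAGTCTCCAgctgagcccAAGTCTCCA

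Nefl (ENSMUSG00000022055.7) lies on chromosome 14 from 68083863 to 68089095, on the plus strand. Nefm (ENSMUSG00000022054.11) lies beside it on the minus strand, from 68082590 to 68124846. Nefh (ENSMUSG00000020396.8) is on chromosome 11 from 4938754 to 4948064, and Ina (ENSMUSG00000034336.3) on chromosome 19 from 47014698 to 47025327. The last exon of the Nefm transcript with the longer span overlaps the first exon of Nefl over 1108 bases (68083863 to 68084970) on the opposite strand, and Ina shares 456 exon bases (47014698 to 47015153) with Nt5c2, a nucleotidase gene on the opposite strand. Whether the counting used strand is not given in the sources used here, so reads from these overlaps are uncertain. Nt5c2 itself stood between 50.5 and 65.9 CPM in all 18 libraries.

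Library totals ranged from 10111149 to 23404528 counts, and the members' counts in a library from 76 (Nefh) to 9715 (Nefm), so counting error is small for all but the lowest Nefh values. All 5 markers of cortical excitatory neurons were detected in every library, with summed levels of 731 to 1730 CPM. Layer 6 and subplate markers set L5-6 apart as a sum, at 398 to 798 CPM there and 123 to 212 CPM in L2-3 and L4. Ntsr1 of that list ran the other way, in GFP mice at 84.8 to 94.9 CPM in L2-3 and 31.2 to 60.0 CPM in L5-6. Summed layer 5 markers overlapped between L4 (271 to 412 CPM) and L5-6 (247.5 to 438 CPM), but their genes went both ways. Pou3f1 was lower in L5-6, in GFP mice at 19.4 to 64.1 CPM against 158 to 195 CPM in L4. Bcl11b, Crym, Etv1, Fezf2 and Ldb2 had higher medians in L5-6 than in L4, in GFP and in FOXP2 mice. Layer 4 markers summed to 851 to 1223 CPM in L4, 378.5 to 783.5 CPM in L2-3 and 259.5 to 900 CPM in L5-6. Rspo1 and Cyp39a1 of that list had higher medians in L2-3 than in L4, in GFP mice 4.68 against 4.21 CPM and 3.12 against 1.56 CPM. Markers of layers 2-3 overlapped between L4 (1108 to 1363 CPM) and L2-3 (908 to 1424 CPM) and were lower in L5-6 (279 to 621 CPM). Foxp2 stood at 33.3 to 64.9 CPM in L4 of FOXP2 mice against 5.39 to 8.75 CPM in GFP mice, and in L2-3 at 20.2 to 52.3 against 1.77 to 6.54 CPM. In L5-6 the ranges overlapped (39.6 to 77.8 against 52.5 to 68.6 CPM). The L5-6 library of GFP mouse 1 stood apart, with oligodendrocyte markers at 3481 CPM against 810 to 1745 CPM in the other 5 and excitatory neuron markers at 912 CPM against 1347 to 1730 CPM. huFOXP2 mouse 1 stood apart in the photoreceptor gene Crx, at 1.61 to 2.52 CPM in its 3 layers and at most 0.0564 CPM elsewhere.

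Neurofilament RNA was much higher in the deep than in the upper layers, while α-internexin RNA was more even. Averaged over the 6 mice, L5-6 exceeded L2-3 by 3.16 ± 0.14 for Nefm (log2 fold change ± SE, 8.91-fold), 2.32 ± 0.11 for Nefl (5-fold), 2.08 ± 0.17 for Nefh (4.22-fold) and 0.45 ± 0.08 for Ina (1.37-fold). L4 lay between L2-3 and L5-6 for the 3 neurofilament subunits. The plot of member levels by layer shows each mouse.

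**Figure D1:**
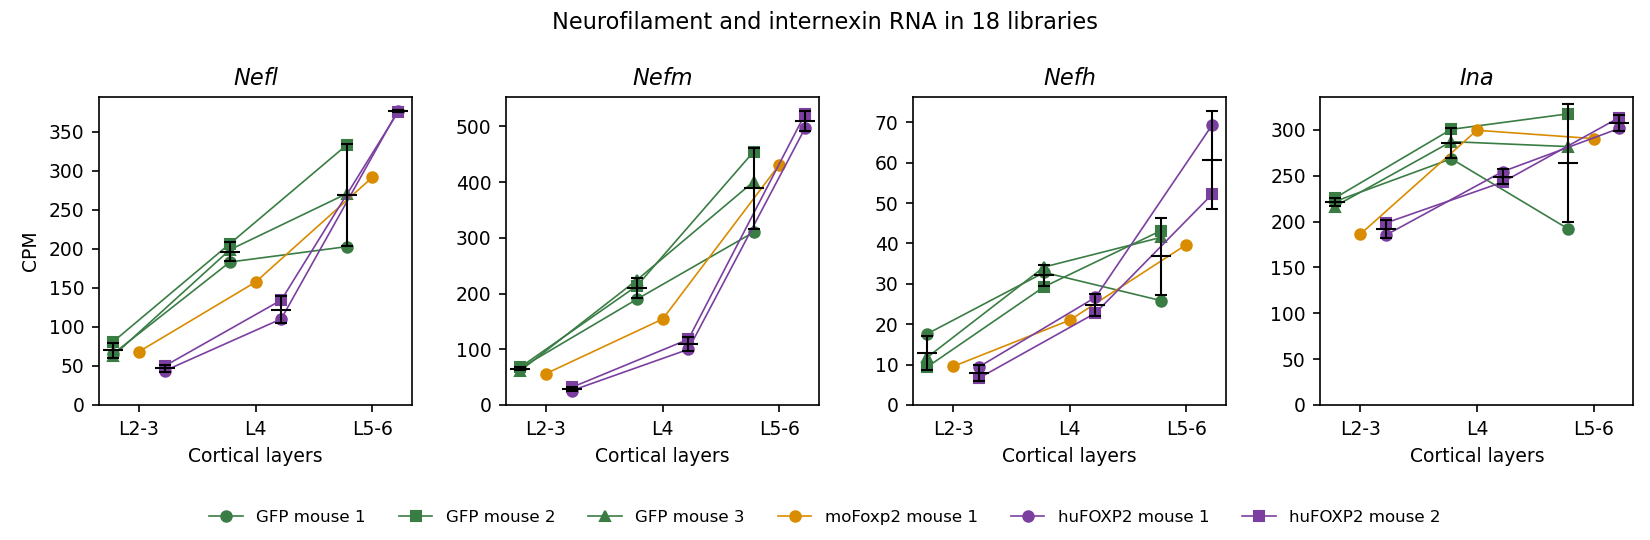
Levels in CPM (linear axis from 0, a separate scale for each gene) in L2-3, L4 and L5-6, with 1 point per library, lines joining the layers of a mouse, and black marks for the mean ± SD of the GFP (n = 3) and huFOXP2 (n = 2) mice. Nefm climbs in every mouse, from at most 67.9 CPM in L2-3 to at least 310.2 CPM in L5-6, while Ina stays between 185 and 318 CPM.

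Nefm, whose product spaces and cross-links filaments, showed the steepest gradient. In L2-3 it stood at 66.2, 67.9 and 61.6 CPM in GFP mice 1, 2 and 3, at 56.4 CPM in the moFoxp2 mouse, and at 25.9 and 31.6 CPM in huFOXP2 mice 1 and 2. In L4 the values were 190, 214 and 225 CPM in GFP mice, 154 CPM in the moFoxp2 mouse, and 99.9 and 118 CPM in huFOXP2 mice. In L5-6 they were 310.2, 455 and 401 CPM, then 432 CPM, then 497 and 522 CPM. Every L5-6 library was above every L4 library, and every L4 library above every L2-3 library. Within a mouse, L5-6 exceeded L2-3 from 4.68-fold (GFP mouse 1) to 19.2-fold (huFOXP2 mouse 1). Ordered by mean, the 6 combinations of group and layer ran from FOXP2 L2-3 (37.9 ± 16.2 CPM, SD, n = 3) through GFP L2-3 (65.2 ± 3.26), FOXP2 L4 (124 ± 27.7), GFP L4 (210 ± 17.7) and GFP L5-6 (389 ± 73.1) to FOXP2 L5-6 (484 ± 46.8). Of the neighbours in that order only the last pair overlapped.

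Nefl, which encodes the light subunit, followed closely. Its L2-3 levels were 65.7, 81.2 and 63.1 CPM in GFP mice 1 to 3, 68.3 CPM in the moFoxp2 mouse, and 43.8 and 49.9 CPM in huFOXP2 mice 1 and 2. The L4 levels were 183, 207 and 199 CPM, then 158 CPM, then 110.3 and 134 CPM. The L5-6 levels were 203, 333 and 271 CPM, then 292 CPM, then 377 and 375 CPM. All L4 libraries were above all L2-3 libraries, and L5-6 exceeded L4 within each of the 6 mice, by as little as 1.11-fold in GFP mouse 1 and as much as 3.42-fold in huFOXP2 mouse 1. In the order of means, FOXP2 L2-3 (54.0 ± 12.8 CPM) and GFP L2-3 (70.0 ± 9.81) overlapped, FOXP2 L4 (134 ± 23.6) and GFP L4 (196 ± 11.97) stood clear of them and of each other, and GFP L5-6 (269 ± 65.1) overlapped with GFP L4 and with FOXP2 L5-6 (348 ± 48.9).

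Nefh, the late and most heavily phosphorylated subunit, was the least abundant. L2-3 held 17.7, 9.47 and 11.9 CPM in GFP mice, 9.55 CPM in the moFoxp2 mouse, and 9.42 and 6.64 CPM in huFOXP2 mice. L4 held 32.8, 29.3 and 34.2 CPM, then 21.02 CPM, then 26.7 and 22.8 CPM. L5-6 held 25.9, 43.2 and 41.5 CPM, then 39.7 CPM, then 69.3 and 52.2 CPM. The L2-3 levels lay below all others, whereas L4 and L5-6 overlapped through GFP mouse 1, the 1 mouse of 6 in which Nefh was lower in L5-6 than in L4 (0.788-fold). In the order of means, FOXP2 L2-3 (8.54 ± 1.64 CPM) overlapped with GFP L2-3 (13.0 ± 4.21), and GFP L5-6 (36.8 ± 9.54) overlapped with FOXP2 L4 (23.5 ± 2.89), GFP L4 (32.1 ± 2.53) and FOXP2 L5-6 (53.8 ± 14.9).

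Ina, the subunit of early neurons, had a flatter profile. It stood at 222, 226 and 217 CPM in L2-3 of GFP mice, at 186 CPM in the moFoxp2 mouse, and at 185 and 199 CPM in huFOXP2 mice. L4 gave 269, 301 and 287 CPM, then 299.7 CPM, then 255 and 243 CPM. L5-6 gave 192, 318 and 282 CPM, then 291 CPM, then 302 and 314 CPM. L4 was above L2-3 in all 6 mice, by 1.21-fold to 1.61-fold. L5-6 was above L2-3 in 5 of 6 mice, the exception being GFP mouse 1 (0.867-fold), and above L4 in 3 of 6. In the order of means, FOXP2 L2-3 (190.1 ± 7.38 CPM) was clear of GFP L2-3 (221 ± 4.58), and GFP L5-6 (264 ± 64.6), FOXP2 L4 (266 ± 29.9), GFP L4 (286 ± 16.1) and FOXP2 L5-6 (302 ± 11.5) each overlapped with the next. Through GFP mouse 1, GFP L5-6 also overlapped with both L2-3 groups.

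The fitted layer differences put numbers on these profiles. L4 exceeded L2-3 by 1.71 ± 0.13 for Nefm, 1.41 ± 0.11 for Nefl, 1.38 ± 0.17 for Nefh and 0.42 ± 0.08 for Ina. L5-6 exceeded L4 by 1.45 ± 0.13 for Nefm, 0.92 ± 0.11 for Nefl and 0.69 ± 0.15 for Nefh, while Ina differed by 0.03 ± 0.08. At the call rule of an edgeR adjusted p of 0.05, 4 of 4 members were called in L5-6 against L2-3, where 43.5% of the 15952 genes tested were called. In L4 against L2-3 the count was 4 of 4 (41.7% of all genes), and in L5-6 against L4 it was 3 of 4 (41.6%), Ina being the exception. The members were chosen on these levels, and nothing is read from the counts. Excitatory neuron markers moved with the gradient, at 731 to 1042 CPM in L2-3, 1184 to 1477 CPM in L4 and 912 to 1730 CPM in L5-6, as did meningeal markers in the other direction, at 290.3 to 1490 CPM in L2-3 and at most 64.6 CPM elsewhere. Their part in the gradient was not tested.

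Because the 4 genes differ in length, levels were compared between them per kilobase of exon. In L2-3 of GFP mice Ina led with 68.3 ± 1.41 CPM per kb (SD, n = 3), ahead of Nefl with 20.7 ± 2.90, Nefm with 11.3 ± 0.565 and Nefh with 3.25 ± 1.06. In L5-6 of the same mice Ina (81.5 ± 19.9 CPM per kb) and Nefl (79.6 ± 19.3) lay within each other's spread, followed by Nefm (67.2 ± 12.6) and Nefh (9.23 ± 2.39). Ina thus made up 66.0% ± 1.41 of the summed CPM per kb of the 4 genes in L2-3 and 34.2% ± 1.09 in L5-6, while the share of Nefm went from 10.9% ± 0.143 to 28.5% ± 1.24. L4 was intermediate, with Ina at 46.3% ± 0.688 and Nefm at 19.0% ± 0.798. FOXP2 mice ran from 70.7% ± 5.78 Ina in L2-3 over 55.2% ± 2.61 in L4 to 31.9% ± 2.21 in L5-6.

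**Figure D2:**
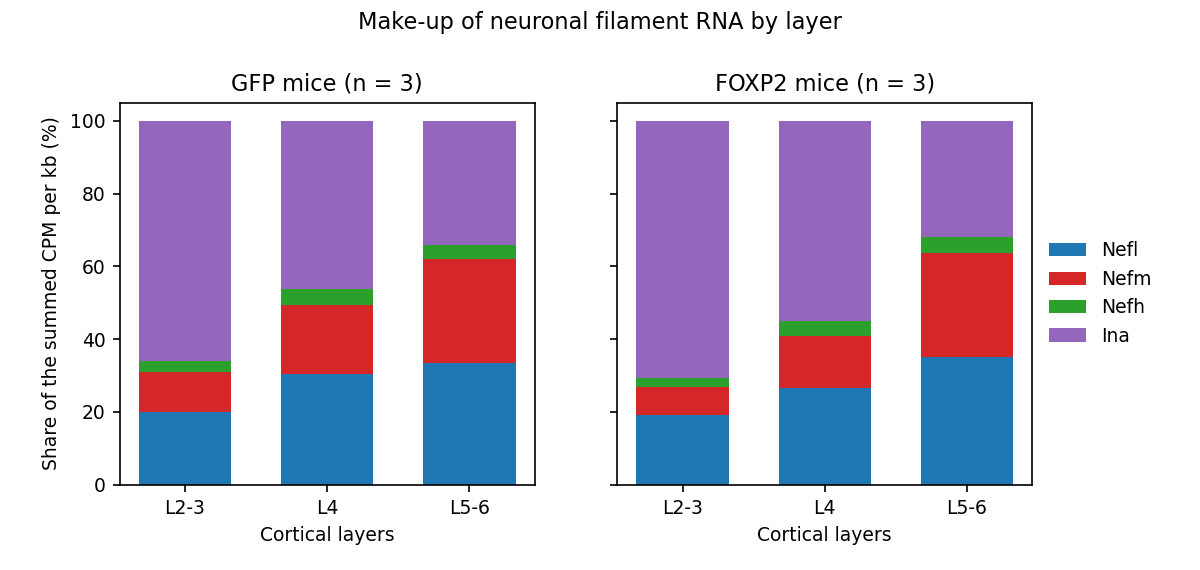
Mean share (%) of each gene in the summed CPM per kb of the 4 genes, by layer, in GFP mice and in FOXP2 mice (n = 3 each). The Ina share shrinks from 66.0% to 34.2% in GFP mice and from 70.7% to 31.9% in FOXP2 mice, and the Nefl and Nefm shares widen.

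The rank of Nefm depends on the length used, since the annotation gives it 5782 exon bases over 2 transcripts and 3680 in the longest one. With the longest transcript, Nefm had a mean of 118.5 CPM per kb in L5-6 over 6 mice, above Nefl (91.3) and Ina (87.3). With exon bases that no other gene overlaps, an alternative chosen after seeing the data, Nefl led in L5-6 with 136 CPM per kb, followed by Ina with 102 and Nefm with 93.3. Nefh was lowest and Ina highest in L2-3 with all 3 lengths.

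Ratios of read counts within a library do not depend on the library total. Nefm/Nefl was higher in L5-6 than in L2-3 in each of the 6 mice, going from 0.836 to 1.01 in L2-3 of GFP mice to 1.37 to 1.53 in L5-6. In FOXP2 mice it went from 0.591 to 0.825 in L2-3 to 1.32 to 1.48 in L5-6. Relative to the light subunit, RNA of the medium subunit was thus more abundant with depth. Nefh/Nefl showed no such course, with 0.117 to 0.269 in L2-3, 0.133 to 0.242 in L4 and 0.128 to 0.184 in L5-6 over the 6 mice. Nefm/Ina covered the widest range, from 0.139 in L2-3 of huFOXP2 mouse 1 to 1.67 in L5-6 of huFOXP2 mouse 2.

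**Figure D3:**
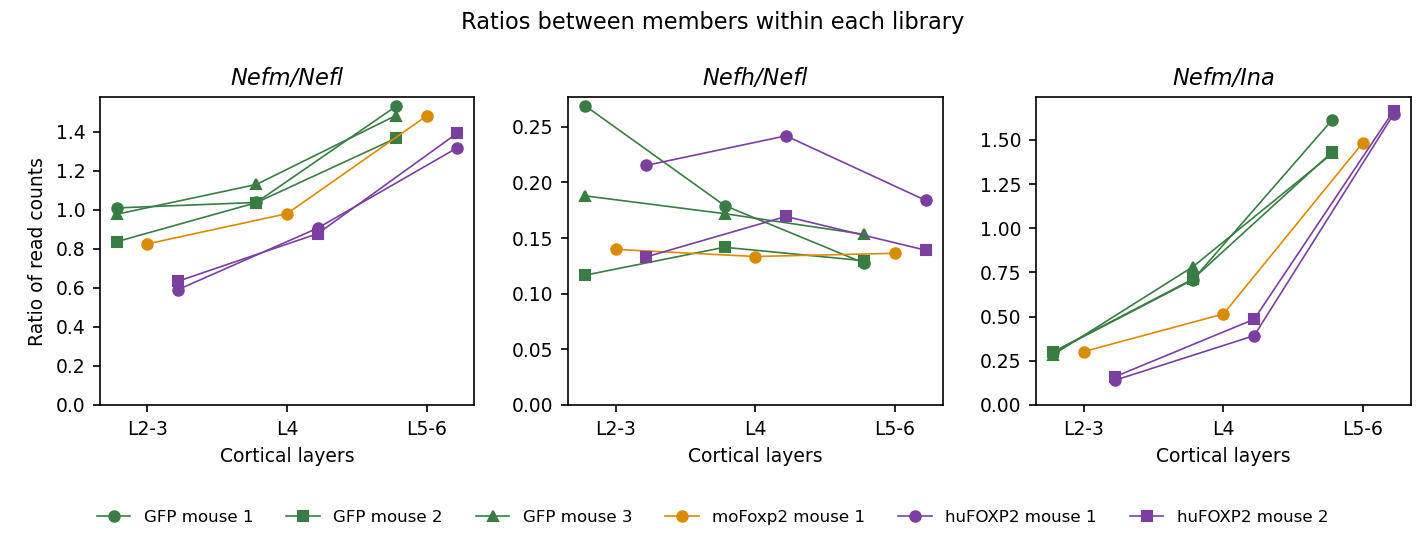
Ratio of read counts (linear axis from 0) of Nefm to Nefl, Nefh to Nefl and Nefm to Ina in each of the 18 libraries, with lines joining the layers of a mouse. Nefm/Nefl and Nefm/Ina climb with depth in all 6 mice, and in L4 both ratios are lower in the 3 FOXP2 mice than in the 3 GFP mice.

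The effect of the construct was read layer by layer, since the series sets electroporation of FOXP2 against that of GFP. In L2-3 and L4 the mean of FOXP2 mice was below that of GFP mice for all 4 genes, and in L5-6 it was above. In L4, where the labels place the GFP-positive cells, the differences were -0.76 ± 0.15 for Nefm, -0.55 ± 0.13 for Nefl, -0.45 ± 0.13 for Nefh and -0.10 ± 0.10 for Ina (log2 fold change of FOXP2 minus GFP mice ± SE). FOXP2 and GFP libraries did not overlap for Nefm (99.9 to 154 against 190 to 225 CPM) or Nefl (110.3 to 158 against 183 to 207 CPM). Nor did they for Nefh (21.02 to 26.7 against 29.3 to 34.2 CPM), while they overlapped for Ina. The share of all genes whose groups separate like this was not determined, and sums of 14 marker lists were compared in each layer. Nothing is thus read from such gaps in members, their ratios, marker genes or marker sums, in any layer. With edgeR none of the 4 was called, against 0.0275% of the 14544 genes tested in L4 (4 genes with edgeR, 32 with DESeq2, and 457 at an unadjusted p under 0.05). Nefm was among the DESeq2 calls, and Nefm and Nefl were called by edgeR without the filter on low counts. The members were chosen on these levels, and nothing is read from these calls. Counts of all genes called without the filter are given in the closing sections. The Ina difference was -0.19 without the moFoxp2 mouse and -0.04 without huFOXP2 mouse 2.

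The ratio to Ina gives the same layer without the library total. In L4, Nefm/Ina was 0.708, 0.712 and 0.782 in GFP mice 1, 2 and 3, 0.515 in the moFoxp2 mouse, and 0.392 and 0.485 in huFOXP2 mice 1 and 2. Nefl/Ina was 0.682 to 0.692 in GFP mice and 0.433 to 0.553 in FOXP2 mice. Neither ratio overlapped between groups. Excitatory neuron markers in L4 overlapped (1277 to 1368 CPM in FOXP2 mice, 1184 to 1477 CPM in GFP mice). Summed layer 5 markers overlapped too (324 to 331 against 271 to 412 CPM), but their genes went both ways. Fezf2 (median 16.6 against 29.1 CPM), Crym (7.07 against 14.4 CPM), Bcl11b, Etv1 and Ldb2 were lower by median in FOXP2 mice. Pou3f1 was higher (224 against 176 CPM). Layer 6 and subplate markers were lower in FOXP2 mice without overlap (123 to 161 against 185 to 212 CPM). Summed interneuron markers were higher by a narrow gap (295.6 to 326 against 232 to 295.0 CPM), and their genes went both ways. By median, Gad1, Gad2, Slc32a1, Vip and Lhx6 were higher, and Sst (35.7 against 43.1 CPM) and Pvalb lower. Their part in the difference was not tested.

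In L2-3 the differences were -0.79 ± 0.26 for Nefm, -0.61 ± 0.26 for Nefh, -0.38 ± 0.18 for Nefl and -0.23 ± 0.08 for Ina. Groups did not overlap for Nefm (25.9 to 56.4 against 61.6 to 67.9 CPM) and Ina (185 to 199 against 217 to 226 CPM), and overlapped for Nefl and Nefh. With edgeR none of the members was called, where 0.0722% of 15241 genes were (11 with edgeR, 755 with DESeq2, and 2412 at an unadjusted p under 0.05). Nefm was called by DESeq2 and by edgeR without the filter on low counts, and nothing is read from these calls either. For Nefh the difference was -0.31 without GFP mouse 1, whose 17.7 CPM was the highest L2-3 value. Without the moFoxp2 mouse it was -1.20 for Nefm and -0.59 for Nefl, and without huFOXP2 mouse 1 it was -0.25 for Nefl. Summed excitatory neuron markers were lower in FOXP2 mice without overlap (731 to 758 against 936 to 1042 CPM). So were the sums for layers 2-3 (908 to 979 against 1248 to 1424 CPM) and layer 4 (379 to 426 against 681 to 784 CPM). The genes of the layer 4 list went both ways. By median, Plcxd2 (309 against 543 CPM), Rorb and Kcnh5 were lower, and Rspo1 (6.38 against 4.68 CPM) and Cyp39a1 (4.08 against 3.12 CPM) higher. The thalamus sum was also lower without overlap (76.2 to 86.5 against 94.7 to 103.8 CPM), but its genes went both ways. Rora was lower (31.4 to 36.2 against 49.6 to 53.8 CPM) and Tcf7l2 higher (4.28 to 5.45 against 3.25 to 3.94 CPM). By median, Prkcd was lower and Calb2 higher. Marker sums that were higher without overlap were those of meninges (1021 to 1490 against 290.3 to 861 CPM), endothelial cells and pericytes (742 to 1076 against 506 to 623 CPM) and interneurons (231 to 291 against 186 to 218 CPM). Pvalb of the interneuron list was lower by median (0.0874 against 0.191 CPM). The part of all these markers in the member differences was not tested, and nothing is read from their gaps.

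In L5-6 the differences were 0.53 ± 0.24 for Nefh, 0.36 ± 0.18 for Nefl, 0.31 ± 0.15 for Nefm and 0.19 ± 0.17 for Ina, and the groups overlapped for all 4 genes. With edgeR no member was called, where 0.0196% of 15330 genes were (3 with edgeR, 56 with DESeq2, and 946 at an unadjusted p under 0.05). The L5-6 library of GFP mouse 1, low in neuron markers, held the lowest value of each of the 4 genes. Without this mouse the differences were 0.34 for Nefh, 0.21 for Nefl, 0.18 for Nefm and 0.01 for Ina. The Nefh difference was 0.31 without huFOXP2 mouse 1, and the Ina difference 0.34 without GFP mouse 2. Striatal markers were lower in FOXP2 mice without overlap (79.9 to 97.2 against 105 to 175 CPM), and their part was not tested.

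**Figure D4:**
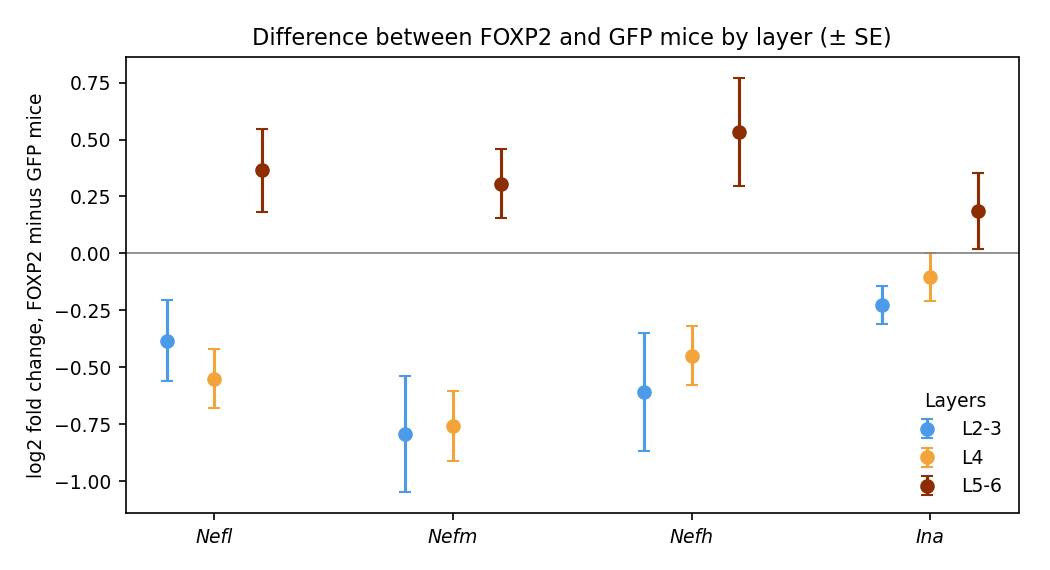
Log2 fold change of FOXP2 minus GFP mice (n = 3 each) for the 4 genes in L2-3, L4 and L5-6, with bars of ± 1 SE and a grey line at 0. Points for L2-3 and L4 lie below 0, down to -0.79 for Nefm, and points for L5-6 above 0, up to 0.53 for Nefh.

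Summed over the 3 layers of a mouse, the differences were near 0. Nefl differed by -0.01 ± 0.17, Nefm by -0.05 ± 0.18, Nefh by 0.03 ± 0.13 and Ina by -0.04 ± 0.10. With edgeR none was called (0.0172% of 17462 genes, 3 with edgeR, 62 with DESeq2, and 715 at an unadjusted p under 0.05).

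The FOXP2 difference was therefore set against layer within the same mice. In L5-6 it exceeded that in L2-3 by 1.19 ± 0.26 for Nefm, 1.12 ± 0.33 for Nefh, 0.79 ± 0.22 for Nefl and 0.44 ± 0.16 for Ina, and that in L4 by 1.13 ± 0.25, 0.97 ± 0.31, 0.97 ± 0.22 and 0.32 ± 0.16 in this order. Between L4 and L2-3 it differed by 0.06 ± 0.26, 0.15 ± 0.34, -0.18 ± 0.22 and 0.12 ± 0.16. Without GFP mouse 1, the L5-6 minus L2-3 values were 1.01, 0.62, 0.63 and 0.22, and without huFOXP2 mouse 1 they were 0.92, 0.97, 0.58 and 0.42. In that comparison 15.4% of 15952 genes were called, with 3 of 4 members among them (not Ina), but the genes called fell from 2457 to 1 without huFOXP2 mouse 1 and to 0 without the mouse as a block. In L4 minus L2-3 0% were called (0 with edgeR, 527 with DESeq2, and 2831 at an unadjusted p under 0.05), and in L5-6 minus L4 0.00627% (1 gene with edgeR, 11 with DESeq2, and 892 at an unadjusted p under 0.05), with 0 members called by edgeR in either. DESeq2 called Nefl and Nefm in L5-6 minus L4, and edgeR without the filter on low counts called these and Nefh. Nothing is read from these counts for the members.

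The steeper gradient of FOXP2 mice is the same difference seen along the layers. Nefm in L5-6 exceeded L2-3 by 2.56 ± 0.19 in GFP mice and by 3.75 ± 0.20 in FOXP2 mice. For Nefl the 2 values were 1.93 ± 0.16 and 2.72 ± 0.17, for Nefh 1.52 ± 0.23 and 2.64 ± 0.24, and for Ina 0.23 ± 0.11 and 0.67 ± 0.11. The step from L4 to L5-6 carried most of it, with 0.88 ± 0.18 against 2.01 ± 0.18 for Nefm. From L2-3 to L4, Nefm differed by 1.68 ± 0.18 in GFP mice and 1.74 ± 0.19 in FOXP2 mice.

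The huFOXP2 mice lay farther from the GFP mice than the moFoxp2 mouse for several members, but with 1 moFoxp2 mouse there is no replicate check of that group. In a fit over all 18 libraries, in which the lone moFoxp2 library of a layer is assumed to vary like the others and both constructs are set against the same GFP mice, Nefm in L2-3 differed from GFP mice by -1.19 ± 0.16 in huFOXP2 mice and by -0.21 ± 0.20 in the moFoxp2 mouse. In L4 the values were -0.94 ± 0.16 and -0.44 ± 0.20. Nefh in L4 had the reverse order, with -0.38 ± 0.26 in huFOXP2 mice and -0.61 ± 0.35 in the moFoxp2 mouse. In L5-6 the Nefl difference was 0.48 ± 0.18 in huFOXP2 mice and 0.12 ± 0.22 in the moFoxp2 mouse. In huFOXP2 mouse 1, with Crx reads in all 3 layers, Nefm was lowest of all mice in L2-3 and L4 and second highest in L5-6. huFOXP2 mouse 2, at 0 Crx reads, had the second lowest Nefm in L2-3 and L4 and the highest in L5-6.

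Across the 18 libraries the 3 neurofilament subunits moved together more closely than with Ina. Pearson correlations of log2 CPM, which reflect shared libraries, layers and mice, were 0.99 for Nefl and Nefm, 0.945 for Nefl and Nefh and 0.939 for Nefm and Nefh, against 0.791 to 0.832 for the pairs with Ina. After the effects of layer and of group (FOXP2 or GFP) were removed in an additive fit, they were 0.935 for Nefl and Nefm, 0.591 and 0.62 for the pairs of these with Nefh, and 0.586 to 0.755 for the pairs with Ina. Among 14330 genes other than the 4 members, those most like Nefl were the integrin gene Itgb3 (0.985), the nuclear receptor gene Esrrg (0.981) and Fezf2 (0.98), a transcription factor gene of layer 5 neurons. Those most like Nefm were Esrrg (0.978), Tmem178 (0.976) and the heparan sulfate sulfotransferase gene Hs3st4 (0.971). Nefh was most like Them6 (0.976), the sialyltransferase gene St8sia5 (0.974) and the vesicular glutamate transporter gene Slc17a7 (0.969), a marker of excitatory neurons. Ina was most like Rab3ip (0.96), the neuronal glucose transporter gene Slc2a3 (0.947) and the synaptic vesicle calcium sensor gene Syt1 (0.946). The gene most like the mean of all 4 was Rap1gds1 (0.992), which codes for an exchange factor of small GTPases, followed by the kinase gene Stk39 (0.978).

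Other genes of the filament and axon machinery were taken from 5 lists and tested over all genes with edgeR. The axon initial segment and node list covers sodium channels and proteins that hold ion channels in the axon membrane. It had 9 of 11 genes higher and 0 lower in L5-6 than in L2-3 (median log2 fold change 0.43, 0.00 over all genes). Of all 15952 genes, 43.5% were called in this comparison, 21.6% higher and 21.9% lower. Cntnap1, the paranodal partner of contactin, rose by 2.04 ± 0.11 (adjusted p = 5.42e-09), the adhesion gene Nfasc by 1.25 ± 0.13 (adjusted p = 2.42e-06) and the sodium channel gene Scn8a by 0.58 ± 0.07 (adjusted p = 9.94e-06). Nfasc is expressed in oligodendrocytes as well as in neurons, and oligodendrocyte markers summed to 810 to 3481 CPM in L5-6 against 179 to 336 CPM in L2-3. Their part was not tested. The Scn8a call was lost in GFP mice alone (adjusted p = 0.152, range over alternatives 2.63e-20 to 0.152).

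Transport and linkage genes were higher in 6 of 14 and lower in 1 (median 0.14). Kif5a, the kinesin heavy chain gene tied to neurofilament transport, rose by 0.62 ± 0.06 (adjusted p = 1.93e-06) and the cytoskeletal linker gene Dst by 0.48 ± 0.07 (adjusted p = 6.35e-05). Of 19 neuronal microtubule genes, 3 were higher and 8 lower (median -0.12), among them Dcx, a gene of migrating and young neurons (-0.61 ± 0.07, adjusted p = 1.31e-05), and the tubulin gene Tubb2b (-0.54 ± 0.07, adjusted p = 1.5e-05). The list called kinase genes here covers kinases that phosphorylate neurofilaments and activators of the kinase Cdk5. Of its 10 genes, 1 was higher and 4 lower (median -0.12), a share near that of all genes. These were led by Mapk9 (0.34 ± 0.06, adjusted p = 0.000336, lost in GFP mice alone with adjusted p = 0.336, range 1.66e-07 to 0.336) and Mapk10 (-0.29 ± 0.07, adjusted p = 0.00249, lost in FOXP2 mice alone with adjusted p = 0.638, range 2.28e-05 to 0.638).

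Of 10 other intermediate filament genes, 0 were higher and 5 lower in L5-6 than in L2-3 (median -0.18), with the muscle filament gene Des at -1.62 ± 0.15 (adjusted p = 9.24e-07), Vim at -1.23 ± 0.13 (adjusted p = 5.29e-06) and the astrocyte filament gene Gfap at -1.08 ± 0.25 (adjusted p = 0.00251, lost in GFP mice alone with adjusted p = 0.604, range 9.15e-71 to 0.604). Des and Vim are expressed in vascular cells, and Gfap in astrocytes. Endothelial and pericyte markers summed to 506 to 1076 CPM in L2-3 and 301 to 519 CPM in L5-6, and astrocyte markers to 1208 to 2167 and 1023 to 1959 CPM. Meningeal markers differed more, at 290.3 to 1490 CPM in L2-3 and 22.2 to 36.9 CPM in L5-6. Their part was not tested.

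**Figure D5:**
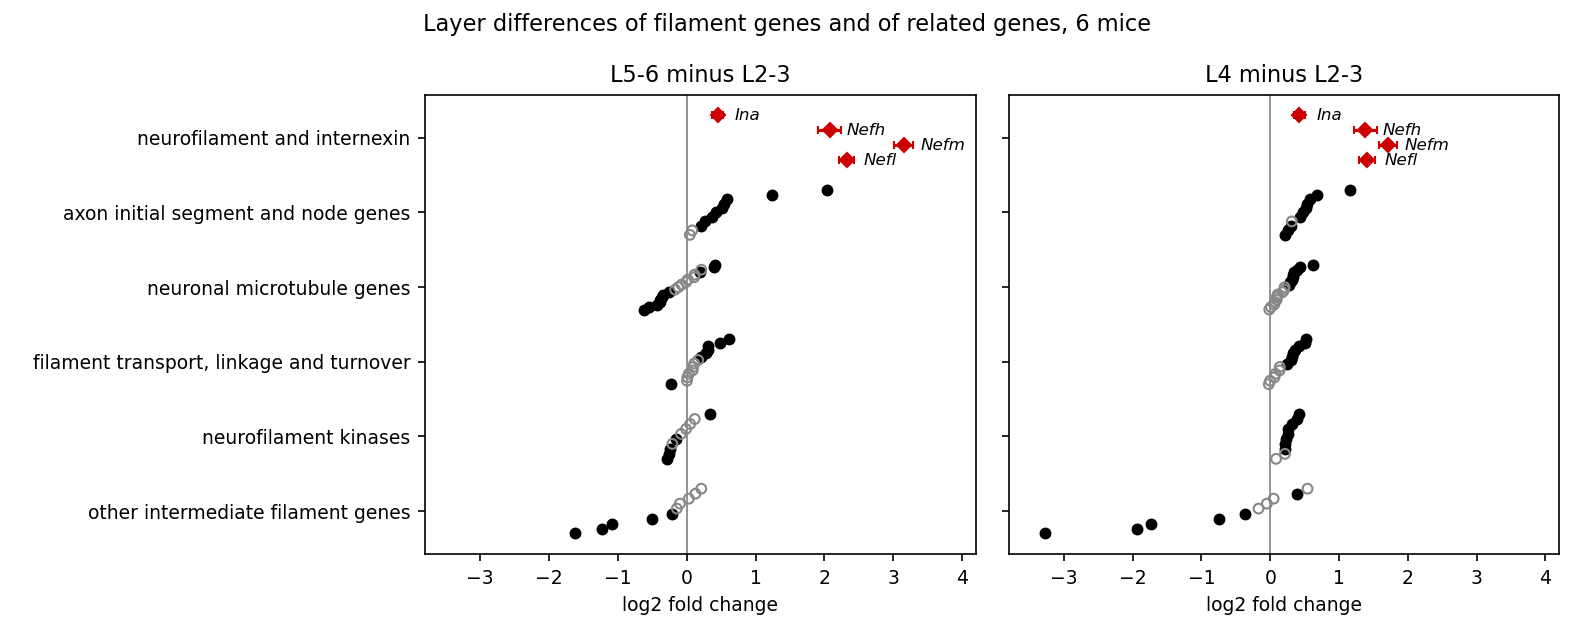
Log2 fold change of L5-6 minus L2-3 and of L4 minus L2-3 over 6 mice, for the 4 members (red diamonds, ± SE) and for 5 lists of related genes, with filled points for genes past an edgeR adjusted p of 0.05 and open points for the rest. Nefm, Nefl and Nefh reach 2.08 to 3.16 in L5-6 minus L2-3, where the highest listed gene, Cntnap1, reaches 2.04.

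In L4 against L2-3, 4 lists had calls on the high side only: 10 of 11 axon initial segment and node genes, 9 of 19 microtubule genes, 8 of 14 transport genes and 8 of 10 kinase genes were higher and 0 lower, with medians of 0.48, 0.21, 0.27 and 0.24 (0.04 over all genes). Of all genes 41.7% were called, 20.5% higher and 21.3% lower. Of the 10 other intermediate filament genes 1 was higher and 5 lower (median -0.27). Examples were Cntnap1 (1.16 ± 0.11, adjusted p = 2.09e-06), Map1a (0.44 ± 0.05, adjusted p = 1.93e-05) and Kif5a (0.52 ± 0.06, adjusted p = 1.5e-05). From L4 to L5-6, where Nefm, Nefl and Nefh were higher still, 16 of 19 microtubule genes and 8 of 10 kinase genes were lower and 0 higher (medians -0.40 and -0.32, 0.01 over all genes, of which 19.7% were called lower and 21.9% higher), among them Dcx (-0.71 ± 0.07, adjusted p = 8.51e-06) and the Cdk5 activator gene Cdk5r1 (-0.50 ± 0.05, adjusted p = 5.28e-06). Nfasc (0.93 ± 0.12, adjusted p = 6.94e-05) and Cntnap1 (0.87 ± 0.10, adjusted p = 2.03e-05) were the 2 listed axonal genes that were higher, with 3 of 11 lower.

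Between FOXP2 and GFP mice 0 of the 64 listed genes were called in any layer or in the sum with edgeR. At an unadjusted p under 0.05 there were 21 in L2-3, 1 in L4, 4 in L5-6 and 1 in the sum, where of all genes 15.8%, 3.14%, 6.17% and 4.09% were under it. The L5-6 share is thus near that of all genes. DESeq2 called 8 in L2-3 and 0 in L4, L5-6 and the sum, while in L2-3 edgeR called 10 without GFP mouse 1 and 9 without the filter on low counts. For the FOXP2 difference in L5-6 minus that in L2-3, 5 of 10 kinase genes, 6 of 11 axon initial segment and node genes, 3 of 19 microtubule genes and 2 of 14 transport genes were called above 0 and none below. Of all genes 15.4% were called, 6.75% above 0 and 8.66% below, so the shares of microtubule and transport genes called are near that of all genes. Scn2a stood at 0.72 ± 0.12 (adjusted p = 0.00931), Scn8a at 0.79 ± 0.14 (adjusted p = 0.0095) and Mapk8 at 0.56 ± 0.11 (adjusted p = 0.00989). Of 10 other intermediate filament genes 5 were called below 0 and 1 above, with Vim at -1.30 ± 0.27 (adjusted p = 0.0126). Over the 5 lists 22 of 64 genes were called, 34 with DESeq2 and 44 with edgeR without the filter on low counts. Without huFOXP2 mouse 1, and likewise without the mouse block, 0 listed genes were called, with adjusted p of 0.0644 and 0.225 for Scn2a, 0.0668 and 0.0996 for Scn8a, 0.068 and 0.272 for Mapk8 and 0.0697 and 0.0725 for Vim. Over all alternatives adjusted p ranged from 1.76e-08 to 0.225 for Scn2a, from 5.69e-09 to 0.0996 for Scn8a, from 6.28e-05 to 0.272 for Mapk8 and from 4.85e-20 to 0.0725 for Vim.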

How the data were processed

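The series holds 18 RNA-seq libraries of mouse neocortex. The authors deposited whole-number read counts per gene with no normalization, from TruSeq libraries of total RNA per the labels' protocols. The tools named in the submitters' processing notes are STAR and HTSeq, with the mm10 build. Their versions, and whether counting was stranded, were not given in the sources used here. Groups and replicate numbers came from the sample titles, and libraries of a group with the same number were taken as 1 mouse, because the labels state pooling per mouse. In this check, deviations of same-mouse libraries correlated at 0.263 to 0.63, above 0.1 in 18 of 18 pairs. No replicate pair agreed within sampling noise (chi-square per degree of freedom 8.89 to 54.3 over 12 pairs). Where nothing says that mice came from separate litters, p-values measure only the spread between these samples.

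Counts were tested in edgeR 4.0.16 (R 4.3.3) by quasi-likelihood, with TMM normalization and filterByExpr (minimum count 10, minimum total 15), with Benjamini-Hochberg adjustment over all genes tested and a threshold of 0.05. All 4 members passed the filter in every comparison. FOXP2 and GFP mice were compared per layer and over summed layers. Layers, and the FOXP2 difference between layers, were compared in 1 fit with the mouse as a block. SEs were derived from the log2 fold change and its F statistic. Alternatives were RLE size factors, no filter, DESeq2 1.42.0, leaving out each mouse, other blocks and other gene lengths. The procedure was tested on simulated data. The members and lists were chosen with earlier results of these data known. The rule for named genes took the members, Foxp2, up to 3 listed genes of largest fold per list and comparison among those called with a mean of at least 1 CPM, of which the text gives examples, or 2 of smallest p where fewer than 2 were called, and the 3 genes of highest correlation with each member. Crx and Nt5c2 were chosen after their values were seen. Some genes that this rule names are not reported here.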

Additional observations from a re-analysis of the deposited data

Results flagged for a closer look

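For Ina, the L5-6 minus L2-3 log2 ratio of GFP mouse 1 was -0.21, far below the 5 other mice (0.38 to 0.70). A gap of that relative size turns up by chance in about 1 in 20 groups, and 12 sets of layer ratios were examined. The L5-6 library of this mouse had excitatory neuron markers at 912 CPM and oligodendrocyte markers at 3481 CPM, and their part was not tested.

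All 3 FOXP2 mice lay below the GFP mean in L2-3 and above it in L5-6 for each of the 4 members. The FOXP2 difference in L5-6 minus that in L2-3 was 0.79 for Nefl, 1.19 for Nefm, 1.12 for Nefh and 0.44 for Ina (log2). For 3 members the FOXP2 mice also lay below the GFP mean in L4, and the L5-6 minus L4 values were 0.97 for Nefl, 1.13 for Nefm and 0.97 for Nefh. The members were chosen on the same levels, so no test result is read from these differences.

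Among the listed genes named here, the FOXP2 difference in L5-6 minus that in L2-3 passed the edgeR test for Gfap (-1.65), Des (-1.30), Vim (-1.30), Mapk8 (0.56), Mapk9 (0.46), Kif5a (0.51), Myo5a (0.40), Tuba4a (0.95), Dcx (0.55), Map1a (0.38), Scn1a (0.92), Scn8a (0.79) and Scn2a (0.72). These 13 calls were lost without huFOXP2 mouse 1 and without the mouse block.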

How the results depend on the processing

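Of 436 member log2 fold changes under alternatives, 415 kept their sign. The others were Ina in L5-6 minus L4, the 4 members in summed layers, and Nefm and Nefh in the FOXP2 difference of L4 minus L2-3, at values from -0.13 to 0.14. Nefm in summed layers was -0.20 without GFP mouse 1.

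Counts of all genes called moved more. Without the filter on low counts they were 865 (FOXP2 minus GFP in L2-3), 189 (L4), 323 (L5-6), 58 (summed), 1326 (FOXP2 difference in L4 minus L2-3) and 255 (L5-6 minus L4). With DESeq2 they were 755, 32, 56, 62, 527 and 11 in this order. With RLE size factors L2-3 had 4 and the FOXP2 difference in L4 minus L2-3 had 1. A fit over 18 libraries gave 4 in L2-3 and 8 in L5-6. With the replicate number as a block over numbers 1 and 2, which the labels do not say mark pairs, there were 6 calls in L2-3, 7 in L4, 3 in L5-6 and 4 in the sum. Without the replicate block of mice, L5-6 minus L4 had 4032 calls, the FOXP2 difference in L5-6 minus L2-3 had 0, and that in L5-6 minus L4 had 0. L4 minus L2-3 had 1683 in GFP mice alone and L5-6 minus L4 had 2452 in FOXP2 mice alone.

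Leaving out 1 mouse gave 3 to 195 calls in L2-3 (195 without GFP mouse 1), 3 to 6 in L4, 2 to 4 in L5-6, 2 to 7 in the sum, 1 to 3414 for the FOXP2 difference in L5-6 minus L2-3 (1 without huFOXP2 mouse 1), 0 to 14 in L4 minus L2-3 and 0 to 2 in L5-6 minus L4. Comparisons of layers gave 4892 to 7559 calls. The cause of these moves was not tested. Of the 3 genes most like each member, Spearman correlation kept 1 for Nefm and 1 for Ina, and residual correlation kept 0 for Nefm, Nefh and Ina.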
